A study of Homo sapiens with 32 samples.

Results

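The genes described here are 35 genes of the endoplasmic reticulum (ER) whose products fold, export or degrade secretory proteins, or sense misfolded protein. They were chosen by symbol from the 48804 Ensembl genes of the count table, and all 35 passed the filter on low counts at both time points. They comprise 9 lumenal chaperones and co-chaperones, 2 lectin chaperones, 7 enzymes of oxidative folding, 9 factors of ER-associated degradation (ERAD), 4 sensors and transcription factors, and 4 genes of protein translocation and export.

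Secretory and membrane proteins fold in the ER, where the chaperone BiP, encoded by HSPA5, binds unfolded chains. When unfolded chains accumulate, the sensors IRE1 (ERN1), PERK (EIF2AK3) and ATF6 start the unfolded protein response. IRE1 splices the XBP1 mRNA so that it encodes an active transcription factor, PERK slows translation and favours that of ATF4, and ATF6 is cut in the Golgi to release a transcription factor, and the genes that these factors induce include chaperones, oxidoreductases and ERAD factors. Splicing of XBP1 and cleavage of ATF6 cannot be read from counts per gene.

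RNA was sequenced from MDA-MB-468, an established triple-negative breast cancer cell line, after incubation with PBS (control), 0.5 μM salinomycin (Sal, an ionophore antibiotic), 15 μM dasatinib (Das, a Src kinase inhibitor) or the pair of drugs, each at its single-drug dose (S + D). Each treatment was given for 24 or 72 h, which makes 8 conditions with 4 libraries each, described as biological replicates, and 32 libraries in all. Each drug was given at 1 dose to whole cultures of 1 cell line. In such bulk samples fewer cells of a kind and less RNA per cell cannot be told apart.

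Library totals ranged from 25692561 to 42769687 counts. All 8 epithelial markers were present, with a summed level of 11885 to 13469 CPM (read counts scaled by library size) in the control libraries. At 72 h this sum was 7313 to 8147 CPM with Sal and 5579 to 7056 CPM with S + D, against 12297 to 13469 CPM in the control. With Sal 5 of 8 epithelial markers were lower, against 26.8% of all genes. KRT5 was among them (log2 fold change -3.61 ± 0.3 (SE), edgeR adjusted p = 4.19e-08), whereas EGFR was not called with Sal (-0.34 ± 0.15, edgeR adjusted p = 0.0593). Of 8 markers of other cell types, 7 were in the table, and PTPRC, CD3E, CD68, VWF and COL1A2 stayed at or below 0.33 CPM in every library. The collagen gene COL1A1, also expressed by some cancer cells, reached 18.2 to 120 CPM and was higher at 72 h with Sal (log2 fold change 1.22 ± 0.21 (SE), edgeR adjusted p = 8.1e-05) and S + D (1.62 ± 0.21, 4.37e-06). The pericyte and fibroblast gene PDGFRB lay between 0.0622 and 2.22 CPM and was higher with S + D at 72 h (2.41 ± 0.71, edgeR adjusted p = 0.00621). The summed level of the other-cell markers was 24.1 to 32.7 CPM in the control at 72 h, 55.8 to 78.3 CPM with Sal, 33.6 to 69.0 CPM with Das and 68.8 to 123 CPM with S + D. The part of these markers in the results below was not tested.

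In each condition 3 libraries carried a replicate number and 1 did not, and the 8 unnumbered libraries deviated together from their conditions. With Sal at 24 h the unnumbered library lay above the other 3 in 28 of the 35 genes and below them in 5. With Sal at 72 h it lay above them in 7 and below them in 23. In addition, replicate 3 of Das at 72 h lay below the other 3 Das libraries in 29 of the 35 genes. In 16 of the 35 genes it lay within the range of the control libraries. None of these positions was counted over all genes, so a deviation of the whole library cannot be told apart from one of these genes. Fits without Das 72 h replicate 3 are reported below because of its low position. Higher Das estimates in those fits follow from that choice and are no added support for a Das rise. In the sentences on single libraries, values stand in the order replicate 1, replicate 2, replicate 3 and unnumbered library.

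Promoter sequences were examined first, because many of these genes are known targets of ATF6 and XBP1 through the ER stress response element, CCAAT and CCACG with 9 bases between them, or its second form, ATTGG and CCACG with 1 base between them. Of 34796 RefSeq promoters, each from 250 bases before to 50 bases after a start site (GRCh38.p14), 46 or 0.132% held either form on either strand. Promoters were at hand for 31 of the 35 genes (PDIA3, DERL1, DERL3 and SEC24D had none), and 11 of the 31 (35.5%) held an element in at least 1 promoter. This is a share of genes, some of which have several promoters, whereas the shares of all promoters count distinct sequences. The first form occurred in 8 of the 31 genes and in 0.078% of all promoters, and the second form in HERPUD1, HYOU1 and SDF2L1 and in 0.055% of all promoters. The core of the unfolded protein response element, TGACGTG, was found in HYOU1, where it overlaps an element, and in SEC61A1, against 1.963% of all promoters. The core of the amino acid response element, bound by ATF4, was found in HERPUD1, against 3.627% of all promoters. A match is a run of letters and not proof of binding, and a gene without a match may hold an element outside the window. The 9 genes with 1 element are shown 5′ to 3′ along the gene, with the element and its spacer in capitals and up to 10 flanking bases.
HSPA5, chr9:125241381-125241419, minus strand: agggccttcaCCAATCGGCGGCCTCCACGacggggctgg
XBP1, chr22:28800593-28800631, minus strand: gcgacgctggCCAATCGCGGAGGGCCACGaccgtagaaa
CANX, chr5:179698768-179698806, plus strand: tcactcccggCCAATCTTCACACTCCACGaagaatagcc
PDIA6, chr2:10812843-10812881, minus strand: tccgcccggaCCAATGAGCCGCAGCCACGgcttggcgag
CALR, chr19:12938374-12938412, plus strand: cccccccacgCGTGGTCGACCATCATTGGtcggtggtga
CRELD2, chr22:49918544-49918582, plus strand: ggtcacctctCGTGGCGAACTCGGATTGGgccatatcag
ERO1B, chr1:236282173-236282208, minus strand: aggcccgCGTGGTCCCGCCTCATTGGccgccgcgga
HERPUD1, chr16:56932015-56932045, plus strand: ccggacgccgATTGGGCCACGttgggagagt
SDF2L1, chr22:21642104-21642134, plus strand: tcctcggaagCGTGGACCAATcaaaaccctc

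HSP90B1 and HYOU1 held 2 elements each, and the stretch that spans both is shown for the distance between them.
HSP90B1, chr12:103930206-103930349, plus strand: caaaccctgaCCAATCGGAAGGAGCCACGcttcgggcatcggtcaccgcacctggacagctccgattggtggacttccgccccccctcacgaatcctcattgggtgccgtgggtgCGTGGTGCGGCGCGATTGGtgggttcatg
HYOU1, chr11:119057264-119057400, minus strand: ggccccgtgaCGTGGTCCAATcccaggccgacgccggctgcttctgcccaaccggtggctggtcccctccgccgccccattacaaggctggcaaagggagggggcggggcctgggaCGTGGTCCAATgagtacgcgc

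Levels in the PBS control differed widely between the 35 genes. In the control at 72 h, on a scale of CPM per 1000 transcript bases, the calcium-binding lectin chaperone CALR stood highest at 792, followed by its membrane-bound relative CANX at 394 and the disulfide isomerase P4HB at 352. XBP1 stood at 347 and HSPA5 at 96.8 on this scale. The sensor ERN1 stood at 3.2 and the ERAD factor DERL3 lowest at 0.584. Reads of DERL3 are uncertain, since 77.0% of its exon bases overlap SMARCB1 on the other strand and the use of strand in counting is unknown.

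Sal raised most of the 35 genes at 72 h, and Das raised fewer. A gene was called higher or lower at an edgeR adjusted p under 0.01. With Sal at 72 h, 29 of the 35 genes were higher, against 26.3% of all genes tested, and only XBP1 was lower, against 26.8%. Their median log2 fold change was 1.56, against 0.0 over all genes. With S + D at 72 h, 28 genes were higher, against 27% of all genes, and again 1 was lower, against 27.9%, with a median of 1.37 against 0.01. With Das at 72 h, 14 genes were higher, against 10.5% of all genes, and 0 were lower, against 9.36%, with a median of 0.57 against 0.02. Without Das 72 h replicate 3 the Das count was 25, against 14.6% of all genes, and without Das 72 h replicate 1 it was 9. The first of these fits leaves out the Das library that was lowest in 29 of the 35 genes, so its higher count is no added support for a Das rise.

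At 24 h fewer genes were called with all 4 libraries of each condition in the fit. With Sal 12 of the 35 genes were higher, against 4.55% of all genes, and 0 were lower, against 2.23%, with a median log2 fold change of 0.51 against -0.02. With Das 7 genes were higher, against 6.99% of all genes, and 0 were lower, against 6.88%, with a median of 0.25 against 0.02. With S + D 24 genes were higher, against 17.1%, and 0 were lower, against 16.5%, with a median of 0.75 against 0.04. The S + D count of 24 was not reached in any fit that left out a library, where 16 to 20 genes were higher. The unnumbered libraries deviated together at 24 h. Libraries sharing a number from 1 to 3 correlated at 0.32 at most, within the range of pairs with different numbers (up to 0.35). With a term for the replicate number in the fit (the replicate block), 21 genes were higher with Sal, against 9.97% of all genes. With Das 9 were higher in that fit, against 13.4%, and 1 was lower (PDIA4, log2 fold change -0.39), against 14%. In the numbered libraries alone, 24 genes were higher with Sal (12.7% of all genes), 17 with Das (20.6%) and 31 with S + D (28.7%). In the numbered libraries of 24 h Das also lowered 2 genes, HSP90B1 (-0.29) and PDIA4 (-0.44), against 18.7% of all genes. At 72 h the numbered libraries gave 30, 12 and 29 genes higher, against 27.8%, 11.2% and 28.4% of all genes. Without the unnumbered Das library the Das count at 24 h was 11.

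**Figure D1:**
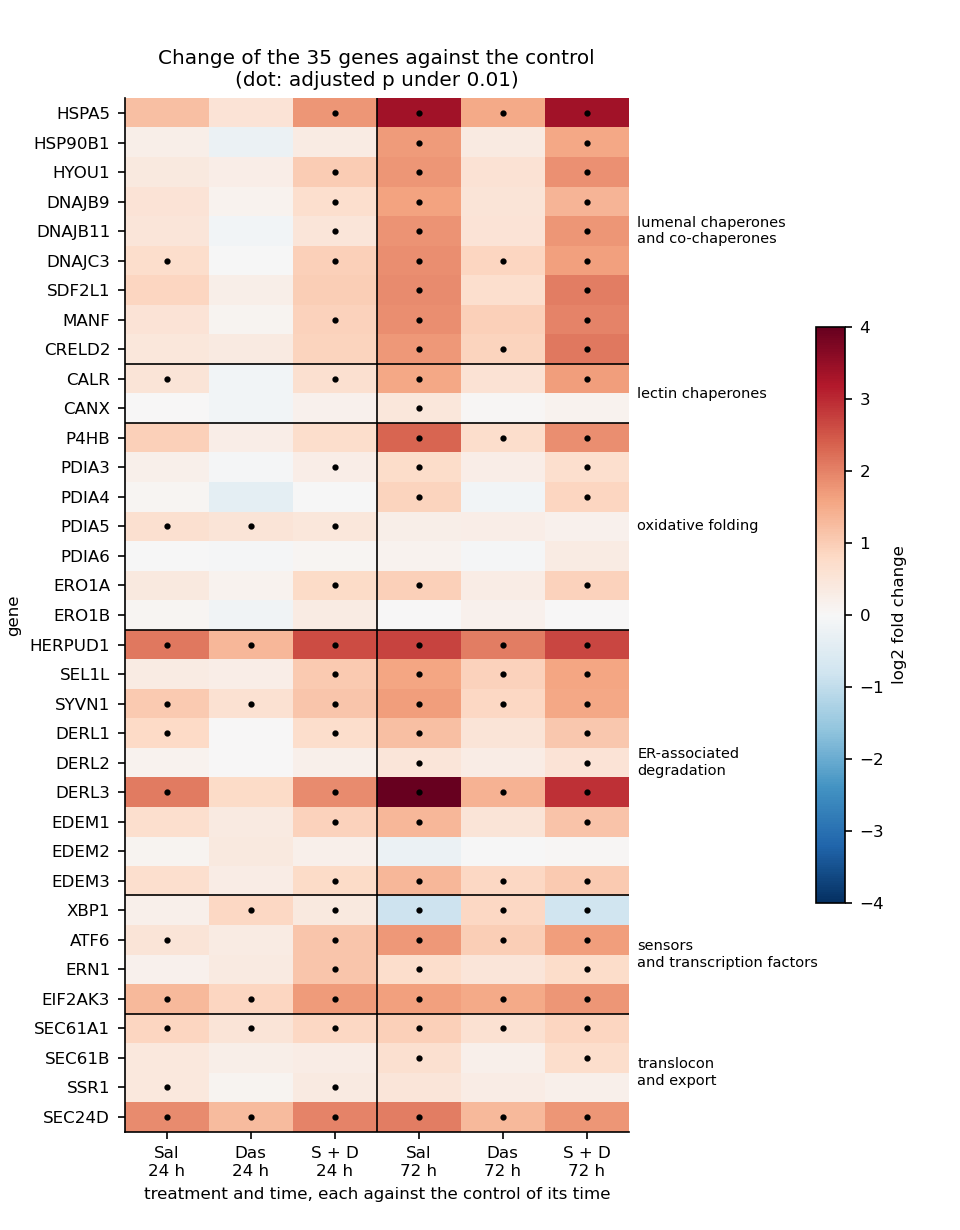
Log2 fold changes against the control of the same time point for the 35 genes (rows, grouped by role) with Sal, Das and S + D at 24 and 72 h (columns), as colour from blue (lower) to red (higher), with a dot for an edgeR adjusted p under 0.01. With Sal at 72 h, 29 of 35 genes were higher and XBP1 was lower.

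The 35 genes took a larger part of the counts in the treated libraries. Their summed share of library counts was 0.89 to 0.937% in the control at 24 h and 0.988 to 1.065% in the control at 72 h. With Sal the share was 1.134 to 1.632% at 24 h and 2.495 to 2.915% at 72 h. With S + D it was 1.438 to 1.606% and 2.315 to 2.884%. With Das it was 1.034 to 1.118% at 24 h and 1.155 to 1.851% at 72 h, with replicate 3 at the low end. The shares of the treated libraries lay above every control library of their time point in all 6 treated conditions.

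**Figure D2:**
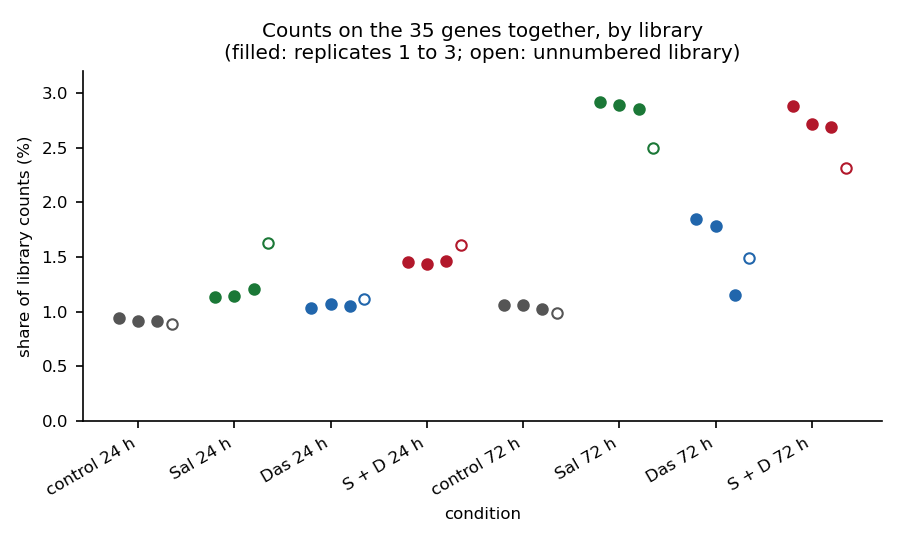
Share of each library's counts (percent, y axis) that fell on the 35 genes, by condition (x axis), with 1 point per library, filled for replicates 1 to 3 and open for the unnumbered library. The Sal and S + D libraries at 72 h, at 2.315 to 2.915%, stand above all other libraries.

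Among the lumenal chaperones, HSPA5 (ENSG00000044574; GRCh37 chromosome 9, 127997132 to 128003661, minus strand) encodes BiP, the Hsp70 of the ER. At 24 h HSPA5 stood at 323, 329, 328 and 379 CPM in the control and at 508, 504, 596 and 1536 CPM with Sal. HSPA5 stood at 441, 453, 427 and 635 CPM with Das and at 1013, 974, 951 and 1633 CPM with S + D. Every treated library lay above every control library, and the unnumbered library was the highest of each condition. S + D raised HSPA5 at 24 h, from 340 ± 26.3 to 1143 ± 328 CPM (SD, n = 4), which is 1.78 ± 0.3 (SE) on the log2 scale with an edgeR adjusted p of 0.000163. The Sal response at 24 h (1.19 ± 0.3) did not pass the test, with an edgeR adjusted p of 0.013. Without Sal 24 h replicate 1 or replicate 2 it passed (0.0076 and 0.00809). With the replicate block its adjusted p was 8.82e-05, in the numbered libraries alone its log2 fold change was 0.73 with an adjusted p of 2.19e-08, and over its 8 alternatives the edgeR and DESeq2 adjusted p ran from 2.19e-08 to 0.0485. The Das response at 24 h was 0.54 ± 0.29, with an edgeR adjusted p of 0.203.

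At 72 h HSPA5 had the largest log2 fold change of the 9 lumenal genes with Sal. It stood at 370, 386, 353 and 410 CPM in the control and at 3752, 4012, 3875 and 4103 CPM with Sal. It stood at 1452, 1311, 374 and 1169 CPM with Das and at 4587, 3760, 3653 and 3705 CPM with S + D. All Sal and S + D libraries lay far above the control, whereas Das replicate 3 lay within the control range. The log2 fold change was 3.36 ± 0.28 with Sal (edgeR adjusted p = 4.91e-08), a 10.2-fold rise, and 3.35 ± 0.28 with S + D (3.8e-08). With Das it was 1.5 ± 0.26 (edgeR adjusted p = 0.000396), and 1.8 ± 0.11 without Das 72 h replicate 3.

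The 8 other lumenal factors are HSP90B1 (GRP94, the Hsp90 of the ER), HYOU1 (a nucleotide exchange factor of BiP), the J-domain co-chaperones DNAJB9, DNAJB11 and DNAJC3, SDF2L1 (a partner of DNAJB11), and the secreted stress proteins MANF and CRELD2. With Sal at 72 h all 9 lumenal genes rose, by log2 fold changes of 1.61 to 3.36 with a median of 1.8, and with S + D all 9 rose, by 1.37 to 3.35. The shares of all genes higher were 26.3% and 27%. HSP90B1 rose from 946 ± 48.2 to 3109 ± 314 CPM with Sal (SD, n = 4), or by 1.7 on the log2 scale. With Das at 72 h, HSPA5, DNAJC3 (0.85) and CRELD2 (0.9) rose, against 10.5% of all genes. Without Das 72 h replicate 3, left out for its low values in these genes, all 9 were called, against 14.6% of all genes. Among them were MANF (1.16), HYOU1 (0.78) and HSP90B1 (0.51). DNAJC3 lost its Das call without control 72 h replicate 3, Das 72 h replicate 1 or Das 72 h replicate 2 (edgeR adjusted p up to 0.0124). At 24 h, DNAJC3 alone rose with Sal (0.7), 0 of the 9 rose with Das, and 6 rose with S + D. Of all genes, 4.55%, 6.99% and 17.1% were higher with these treatments. Among the 6 were HYOU1 (1.0) and MANF (0.92). Of the 6, DNAJB11 lost its call in all 8 fits that left out a library (edgeR adjusted p 0.0157 to 0.034) and DNAJB9 in 5 of 8 (0.0105 to 0.0215). With the replicate block Sal raised 5 of the 9, Das raised 0 and S + D raised 9, and in the numbered libraries alone 6 rose with Sal, 3 rose and 1 fell with Das, and 9 rose with S + D.

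CRELD2 (ENSG00000184164; GRCh37 chromosome 22, 50311815 to 50321188, plus strand) encodes a small secreted ER stress protein. At 24 h CRELD2 stood at 29.6, 31.1, 31.5 and 44.1 CPM in the control and at 34.1, 29.8, 36.5 and 86.6 CPM with Sal. It stood at 38.7, 37.4, 33.1 and 63.9 CPM with Das and at 53.9, 53.6, 52.9 and 85.1 CPM with S + D. The Sal and Das ranges overlapped the control range and the S + D range did not. The S + D difference at 24 h was 0.88 ± 0.3 with an edgeR adjusted p of 0.0242, and 6.47e-06 with the replicate block (1.68e-08 to 0.0307 over its 8 alternatives). At 72 h it stood at 23.6, 28.0, 28.9 and 40.3 CPM in the control and at 118, 98.1, 93.1 and 92.6 CPM with Sal. It stood at 66.8, 59.2, 30.3 and 69.9 CPM with Das and at 154, 122, 122 and 128 CPM with S + D, so that only Das replicate 3 overlapped the control. CRELD2 rose by 1.72 ± 0.21 with Sal (edgeR adjusted p = 2.33e-06), by 2.1 ± 0.22 with S + D (2.7e-07) and by 0.9 ± 0.21 with Das (0.00359). The Das call was lost without control 72 h replicate 1, 2 or 3 or without Das 72 h replicate 1 (edgeR adjusted p 0.0114 to 0.0155), and without Das 72 h replicate 3 the log2 fold change was 1.12.

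The lectin chaperones hold glycoproteins in the ER until they are folded. CALR rose from 1506 ± 218 to 4485 ± 791 CPM with Sal at 72 h (SD, n = 4; log2 fold change 1.56) and by 1.66 with S + D. CANX rose by 0.44 with Sal (edgeR adjusted p = 0.00786), and this call was lost in 7 of 8 fits that each left out a library, all but the fit without the unnumbered Sal library, with adjusted p up to 0.0311 without the unnumbered control library. With S + D the CANX difference was 0.13 and was not called. Neither gene passed the test with Das at 72 h, although CALR passed without Das 72 h replicate 3 (0.77 ± 0.21, edgeR adjusted p = 0.00684). At 24 h CALR rose with Sal (0.51, edgeR adjusted p = 0.00943) and S + D (0.63), and the Sal call held in 2 of 8 fits that left out a library.

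In oxidative folding, disulfide bonds are made and rearranged. With Sal at 72 h, 4 of 7 genes rose, against 26.3% of all genes. They were P4HB (2.32), the isomerases PDIA3 (0.73) and PDIA4 (0.9), and the oxidase ERO1A (0.94), which recharges the isomerases. The same 4 were called with S + D, by 1.87, 0.67, 0.87 and 0.92. PDIA5, PDIA6 and the second oxidase ERO1B were not called in either comparison, and ERO1B stood at 20.7 ± 4.12 CPM in the control and 21.5 ± 5.15 CPM with Sal (SD, n = 4). With Das at 72 h only P4HB of these 7 rose, against 10.5% of all genes. PDIA5 was also called without Das 72 h replicate 3 (0.38, edgeR adjusted p = 0.00877). At 24 h PDIA5 was called with Sal (0.63), Das (0.53) and S + D (0.45). This S + D call was lost without control 24 h replicate 1 (edgeR adjusted p = 0.0113) or replicate 2 (0.0109). Of the exon bases of PDIA6 25.2%, and of PDIA5 12.0%, overlap other genes.

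P4HB (ENSG00000185624; GRCh37 chromosome 17, 79801035 to 79818732, minus strand) is the archetypal protein disulfide isomerase. At 24 h P4HB stood at 717, 714, 737 and 721 CPM in the control and at 1053, 910, 1149 and 2542 CPM with Sal. It stood at 840, 815, 782 and 1001 CPM with Das and at 969, 992, 996 and 1640 CPM with S + D. No treated library reached down to the control range, and the unnumbered libraries were the highest of the treated conditions. The Sal difference at 24 h was 0.95 ± 0.25 with an edgeR adjusted p of 0.0184, and 0.000642 with the replicate block. Over its 8 alternatives the adjusted p ran from 3.27e-06 to 0.0581. With S + D the difference was 0.7 ± 0.25 (edgeR adjusted p = 0.0307), and its adjusted p was 0.00155 with the replicate block, within a range of 3.68e-06 to 0.041 over 8 alternatives.

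At 72 h P4HB stood at 834, 858, 907 and 837 CPM in the control and at 4860, 4316, 4231 and 3993 CPM with Sal. It stood at 1815, 1597, 833 and 1420 CPM with Das and at 3494, 3293, 3193 and 2724 CPM with S + D. Das replicate 3 lay just below the control range and all other treated libraries lay above it. P4HB rose by 2.32 ± 0.18 with Sal (edgeR adjusted p = 2.19e-08) and by 1.87 ± 0.17 with S + D (1.07e-07). The Das rise of 0.71 ± 0.17 (edgeR adjusted p = 0.00401) was lost without control 72 h replicate 1, control 72 h replicate 2, the unnumbered control library, Das 72 h replicate 1 or Das 72 h replicate 2 (0.011 to 0.0183), and was 0.92 ± 0.11 without Das 72 h replicate 3. In the numbered libraries alone the Das difference was 0.7 with an adjusted p of 0.0158, and over its 8 alternatives the adjusted p ran from 0.000578 to 0.0233.

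ERAD withdraws misfolded proteins from the ER for the proteasome. With Sal at 72 h, 8 of the 9 ERAD genes rose, with a median over the 9 of 1.32, and with S + D 8 of 9 rose, with a median of 1.14. The shares of all genes higher were 26.3% and 27%. SEL1L and SYVN1, the adaptor and the ubiquitin ligase of the HRD1 complex, rose by 1.59 and 1.66 with Sal and by 1.59 and 1.55 with S + D. EDEM1 and EDEM3, mannosidase-related factors that mark glycoproteins for degradation, rose by 1.32 each with Sal. EDEM2, of the same family, stood at 32.4 ± 2.25 CPM in the control and 28.1 ± 4.4 CPM with Sal (SD, n = 4) and was not called. With Das 5 of the 9 rose at 72 h, against 10.5% of all genes, including SEL1L (0.92), SYVN1 (0.83) and EDEM3 (0.83). Of these, SYVN1 and EDEM3 were lost without Das 72 h replicate 1 (edgeR adjusted p 0.0112 and 0.0107) and EDEM3 also without Das 72 h replicate 2 (0.0107). Without Das 72 h replicate 3 these rises were 1.09 for SEL1L, 1.03 for SYVN1 and 0.96 for EDEM3.

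HERPUD1 (ENSG00000051108; GRCh37 chromosome 16, 56966054 to 56978776, plus strand) encodes an ERAD scaffold of the ER membrane and holds the second form of the ER stress response element printed above. At 24 h HERPUD1 stood at 120, 117, 114 and 115 CPM in the control and at 405, 396, 481 and 730 CPM with Sal. It stood at 275, 273, 280 and 334 CPM with Das and at 677, 670, 689 and 748 CPM with S + D. All 12 treated libraries lay above the control, the Sal libraries lay above the Das libraries, and the Sal and S + D ranges overlapped. Already at 24 h HERPUD1 rose by 2.1 ± 0.15 with Sal (edgeR adjusted p = 1.82e-07), by 1.34 ± 0.14 with Das (7.68e-06) and by 2.61 ± 0.15 with S + D (4e-09). At 72 h it stood at 153, 169, 158 and 135 CPM in the control and at 1034, 1050, 1062 and 870 CPM with Sal. It stood at 910, 846, 223 and 569 CPM with Das and at 1167, 1016, 985 and 775 CPM with S + D, again with no overlap with the control. HERPUD1 rose by 2.69 ± 0.29 with Sal (edgeR adjusted p = 5.87e-07), by 2.66 ± 0.29 with S + D (5.46e-07) and by 2.04 ± 0.29 with Das (6.21e-05), or 2.34 without Das 72 h replicate 3.

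DERL3 (ENSG00000099958; GRCh37 chromosome 22, 24176690 to 24181315, minus strand) belongs to the derlins, which help move proteins out of the ER, and had the largest fold change of the 35 genes with Sal at 72 h. At 24 h DERL3 stood at 1.48, 1.84, 1.76 and 2.66 CPM in the control and at 4.45, 4.68, 5.95 and 18.2 CPM with Sal. It stood at 3.52, 2.90, 2.83 and 3.71 CPM with Das and at 5.76, 5.78, 6.71 and 10.1 CPM with S + D. All treated libraries lay above the control. DERL3 rose by 2.08 ± 0.39 with Sal at 24 h (edgeR adjusted p = 0.00205, and 0.01 without control 24 h replicate 1) and by 1.9 ± 0.39 with S + D (0.000813). In the numbered libraries alone the Sal rise was 1.58 (edgeR adjusted p = 2.67e-07) and the S + D rise 1.86. The Das difference of 0.76 ± 0.39 was not called, with an edgeR adjusted p of 0.176, and was 0.9 in the numbered libraries alone (0.000164).

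At 72 h DERL3 stood at 1.17, 2.35, 1.95 and 1.75 CPM in the control, from 35 to 89 counts, and at 32.1, 27.0, 26.4 and 31.3 CPM with Sal. It stood at 6.59, 5.86, 1.90 and 4.92 CPM with Das and at 13.5, 13.4, 12.9 and 16.2 CPM with S + D. Every Sal library lay above every S + D library, and Das replicate 3 lay within the control range. DERL3 rose by 3.99 ± 0.29 with Sal (edgeR adjusted p = 1.68e-08), by 2.93 ± 0.29 with S + D (1.6e-07) and by 1.4 ± 0.28 with Das (0.00122), or 1.68 without Das 72 h replicate 3. The other derlins rose as well, with DERL1 at 1.2 and DERL2 at 0.47 with Sal, and the DERL2 call was lost without control 72 h replicate 3 or Sal 72 h replicate 2 (edgeR adjusted p 0.0124 and 0.0115).

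Of the sensors and transcription factors, XBP1 (ENSG00000100219; GRCh37 chromosome 22, 29190543 to 29196585, minus strand) moved apart from the rest. At 24 h XBP1 stood at 476, 467, 453 and 507 CPM in the control and at 557, 553, 576 and 503 CPM with Sal. It stood at 744, 726, 785 and 1057 CPM with Das and at 587, 589, 613 and 633 CPM with S + D. The Das and S + D libraries lay above the control, and the Sal range overlapped it through the unnumbered library. XBP1 rose by 0.82 ± 0.1 with Das (edgeR adjusted p = 3.13e-05) and by 0.38 ± 0.1 with S + D (0.00627), and the S + D call held in 1 of 8 fits that left out a library, the fit without the unnumbered control library (adjusted p up to 0.0271 in the others). The Sal difference was 0.19 ± 0.1 with an edgeR adjusted p of 0.241, and in the numbered libraries alone it was 0.29 with an adjusted p of 5.7e-05 (5.7e-05 to 0.44 over 8 alternatives).

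At 72 h XBP1 stood at 590, 614, 595 and 686 CPM in the control and at 313, 342, 345 and 428 CPM with Sal. It stood at 817, 895, 1329 and 1419 CPM with Das and at 400, 298, 294 and 454 CPM with S + D. Sal and S + D libraries all lay below the control and Das libraries all above it, with Das replicate 3 among the higher ones. XBP1 fell by 0.82 on the log2 scale with Sal (SE 0.18, edgeR adjusted p = 0.00073) and by 0.8 with S + D (SE 0.18, 0.000858), and rose by 0.84 ± 0.18 with Das (0.002), or 0.76 without Das 72 h replicate 3. These are levels of XBP1 RNA in which spliced and unspliced forms are counted together.

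ATF6 (ENSG00000118217; GRCh37 chromosome 1, 161736088 to 161947364, plus strand) rose with all treatments at 72 h. At 24 h ATF6 stood at 125, 116, 121 and 101 CPM in the control and at 153, 162, 156 and 201 CPM with Sal. It stood at 144, 149, 157 and 123 CPM with Das and at 247, 234, 246 and 249 CPM with S + D. Only the unnumbered Das library fell within the control range. ATF6 rose by 0.53 ± 0.1 with Sal (edgeR adjusted p = 0.00203) and by 1.11 ± 0.1 with S + D (2.84e-07), and the Das difference was 0.33 ± 0.1 (0.0223, and 0.00479 without the unnumbered Das library). At 72 h it stood at 150, 134, 122 and 120 CPM in the control and at 429, 485, 511 and 354 CPM with Sal. It stood at 346, 327, 155 and 223 CPM with Das and at 374, 451, 454 and 404 CPM with S + D, and no treated library overlapped the control. ATF6 rose by 1.74 ± 0.2 with Sal (edgeR adjusted p = 9.19e-07), by 1.66 ± 0.2 with S + D (1.28e-06) and by 0.99 ± 0.19 with Das (0.000988), or 1.19 without Das 72 h replicate 3.

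ERN1 (ENSG00000178607; GRCh37 chromosome 17, 62116440 to 62208179, minus strand) encodes the kinase and endonuclease IRE1. At 24 h ERN1 stood at 17.5, 19.8, 19.3 and 19.4 CPM in the control and at 21.4, 22.1, 21.8 and 21.2 CPM with Sal. It stood at 24.3, 25.0, 25.4 and 20.8 CPM with Das and at 36.0, 38.1, 36.0 and 49.0 CPM with S + D. All treated libraries lay above the control, by little with the single drugs. The S + D rise of 1.1 ± 0.11 passed the test (edgeR adjusted p = 6.12e-07), and the differences with Sal (0.18 ± 0.1, 0.3) and Das (0.35 ± 0.1, 0.0235) did not, although the Das difference passed without the unnumbered Das library (0.0086). At 72 h it stood at 23.2, 23.5, 27.2 and 27.1 CPM in the control and at 42.4, 41.9, 42.2 and 38.9 CPM with Sal. It stood at 35.6, 36.2, 27.2 and 43.4 CPM with Das and at 34.4, 44.9, 44.3 and 46.5 CPM with S + D. Das replicate 3 reached down to the control range. ERN1 rose by 0.69 ± 0.14 with Sal (edgeR adjusted p = 0.00024) and by 0.74 ± 0.14 with S + D (0.000131). The Das difference of 0.49 ± 0.14 just missed the call (edgeR adjusted p = 0.0103) and passed without Das 72 h replicate 3 (0.62 ± 0.12, 0.000665).

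EIF2AK3 (ENSG00000172071; GRCh37 chromosome 2, 88856259 to 88991036, minus strand), the kinase PERK, rose in every treatment at both times. At 24 h EIF2AK3 stood at 44.8, 44.3, 47.6 and 40.6 CPM in the control and at 99.6, 107, 113 and 123 CPM with Sal. It stood at 79.8, 86.1, 83.2 and 67.9 CPM with Das and at 141, 139, 143 and 141 CPM with S + D. The conditions did not overlap, in the order control, Das, Sal, S + D. The rise was 1.31 ± 0.09 with Sal (edgeR adjusted p = 9.77e-08), 0.86 ± 0.09 with Das (3.67e-06) and 1.7 ± 0.09 with S + D (1.3e-09). At 72 h it stood at 55.4, 57.0, 54.0 and 44.3 CPM in the control and at 165, 183, 179 and 145 CPM with Sal. It stood at 195, 192, 98.4 and 125 CPM with Das and at 179, 187, 193 and 163 CPM with S + D, and the treated conditions overlapped each other but not the control. The rise was 1.65 ± 0.18 with Sal (edgeR adjusted p = 5.13e-07), 1.53 ± 0.18 with Das (9.52e-06, and 1.71 ± 0.15 without Das 72 h replicate 3) and 1.76 ± 0.18 with S + D (2.36e-07).

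In translocation and export, SEC61A1 and SEC61B (channel subunits) rose by 0.96 and 0.65 with Sal at 72 h, and SSR1, of the translocon-associated complex, differed by 0.47 with an edgeR adjusted p of 0.0225. The SEC61B call was lost without control 72 h replicate 3 (edgeR adjusted p = 0.011) or the unnumbered Sal library (0.0122). SEC24D (ENSG00000150961; GRCh37 chromosome 4, 119643978 to 119759838, minus strand), a cargo adaptor of the COPII coat that carries proteins from the ER to the Golgi, had already risen at 24 h. At 24 h SEC24D stood at 28.1, 28.7, 27.7 and 28.9 CPM in the control and at 96.7, 97.9, 108 and 119 CPM with Sal. It stood at 71.4, 71.9, 72.5 and 55.4 CPM with Das and at 104, 104, 106 and 119 CPM with S + D. Each treated library lay above the control, and Sal and S + D overlapped. The rise was 1.88 ± 0.1 with Sal (edgeR adjusted p = 1.28e-08), 1.28 ± 0.09 with Das (1.75e-07) and 1.97 ± 0.1 with S + D (7.58e-10). At 72 h it stood at 43.1, 40.9, 43.3 and 37.5 CPM in the control and at 178, 183, 180 and 152 CPM with Sal. It stood at 131, 124, 55.6 and 100 CPM with Das and at 125, 153, 156 and 139 CPM with S + D, still without overlap with the control. The rise was 2.05 ± 0.19 with Sal (edgeR adjusted p = 1.25e-07), 1.31 ± 0.19 with Das (7.55e-05, and 1.53 ± 0.12 without Das 72 h replicate 3) and 1.78 ± 0.19 with S + D (3.96e-07).

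**Figure D3:**
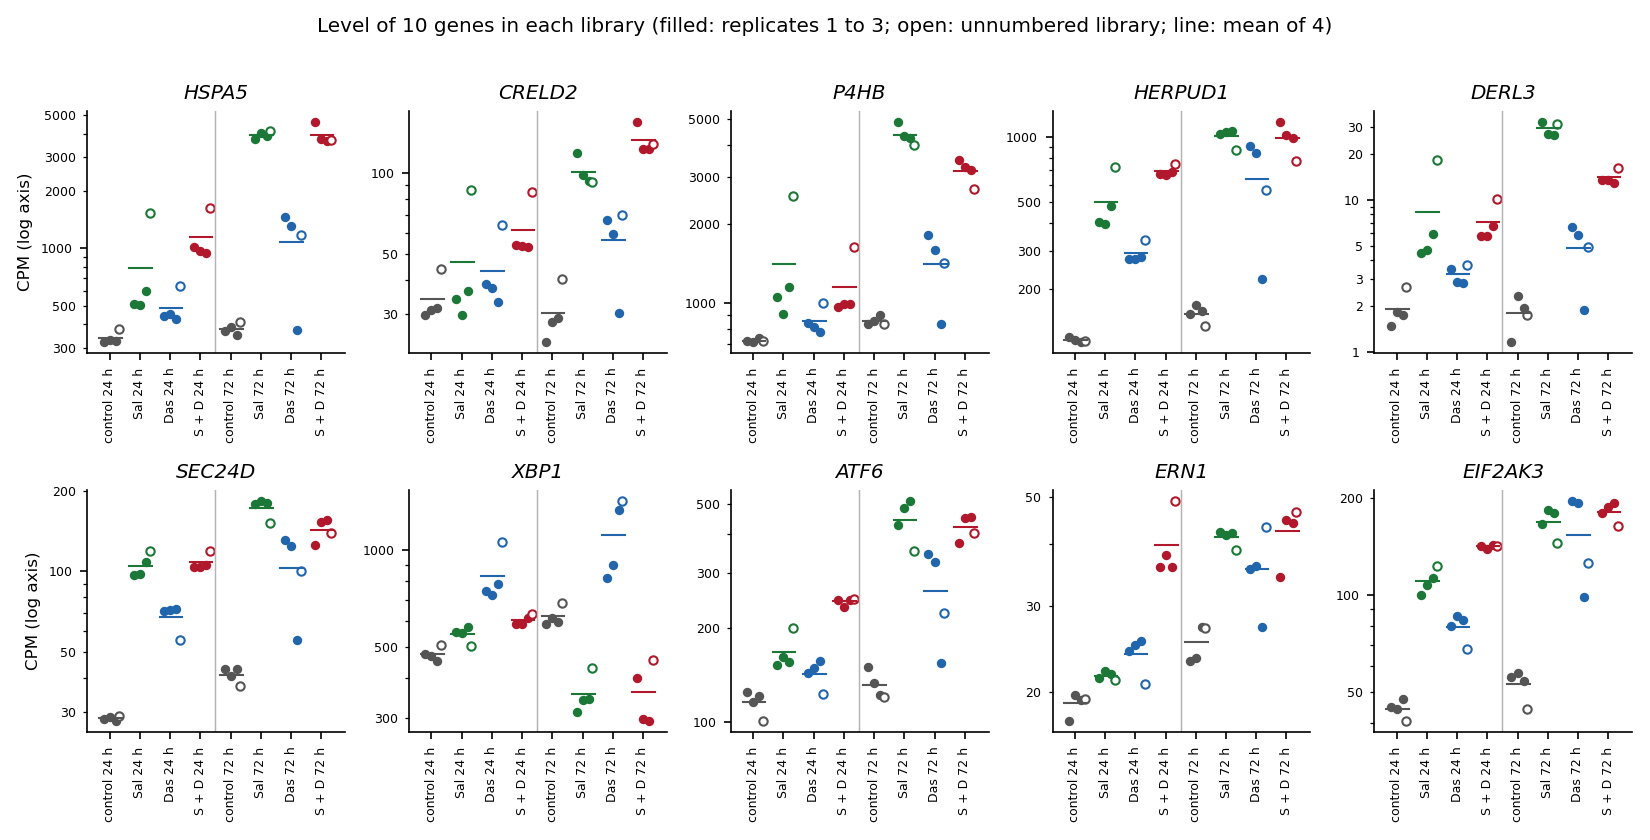
CPM of 10 of the 35 genes (panels, log axes) in each of the 32 libraries by condition (x axis), filled for replicates 1 to 3 and open for the unnumbered library, with a line at the mean of 4. HSPA5 reaches 3752 to 4103 CPM with Sal at 72 h against 353 to 410 CPM in the control, XBP1 is lower there, and Das replicate 3 at 72 h lies near the control for HSPA5, P4HB and DERL3.

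The treatments were also compared with each other. Between Sal and Das at 72 h, 19 of the 35 genes were higher with Sal, against 15.2% of all genes tested, and XBP1 was lower (-1.65), against 16.9%. The differences were largest for DERL3 (2.59 ± 0.27), HSPA5 (1.86 ± 0.26) and P4HB (1.61 ± 0.17), while HERPUD1 (0.65, edgeR adjusted p = 0.0635) and EIF2AK3 (0.13 ± 0.17, edgeR adjusted p = 0.572) were not called. Without Das 72 h replicate 3 the HSPA5 difference was 1.59 and the DERL3 difference 2.33. At 24 h 7 genes were called, against 8% of all genes, of which HERPUD1 (0.76), DERL1 (0.79), DNAJC3 (0.71), CALR (0.61), SEC24D (0.61) and EIF2AK3 (0.45) were higher with Sal and XBP1 (-0.63) was lower. The CALR call held in 6 of 8 fits that left out a library (edgeR adjusted p up to 0.011 without Das 24 h replicate 3). With the replicate block 15 were higher with Sal, against 10.6% of all genes, and 1 was lower, against 10.4%, and in a fit of only the groups compared 0 were called.

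Between S + D and Sal, 0 of the 35 genes were called at 72 h by edgeR, against 3.01% of all genes in either direction, and DESeq2 called 1. The median difference was -0.03 over the 35 genes and -0.03 over all genes. The DERL3 difference was -1.06 ± 0.26 with an edgeR adjusted p of 0.0163, and the ratio of S + D to Sal was 0.998 for HSPA5, with 3926 ± 443 CPM with S + D and 3935 ± 154 CPM with Sal (SD, n = 4). At 24 h 5 genes were higher with S + D than with Sal, against 5.83% of all genes: ERN1 (0.92), SEL1L (0.71), HYOU1 (0.61), ATF6 (0.59) and EIF2AK3 (0.4). The EIF2AK3 call held in 4 and the HYOU1 call in 6 of 8 fits that left out a library (edgeR adjusted p up to 0.0268 and 0.0228, both without Sal 24 h replicate 1). The count was 8 with the replicate block, against 13.5% of all genes, 15 in the numbered libraries alone, against 18.4%, 11 without the unnumbered Sal library and 3 without Sal 24 h replicate 1 or replicate 3.

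The S + D response was next set against the sum of the Sal and Das responses on the log2 scale, where a departure of 0 stands for a combined response equal to the sum. At 72 h 7 genes lay below the sum, against 4.09% of all genes, and none lay above it. They were DERL3 (-2.45 ± 0.38), HERPUD1 (-2.07 ± 0.39), SEC24D (-1.58 ± 0.26), HSPA5 (-1.5 ± 0.36), EIF2AK3 (-1.42 ± 0.25), P4HB (-1.17 ± 0.24) and EDEM3 (-1.11). The median departure was -0.6 over the 35 genes and -0.05 over all genes. The HSPA5 call (edgeR adjusted p = 0.00945) held in 1 of 16 fits that left out a library, with adjusted p up to 0.0254 without Das 72 h replicate 1. In the same fits EDEM3 held in 4 (adjusted p up to 0.0204) and P4HB in 15 (0.0103), in both cases highest without Das 72 h replicate 2. The count was 4 without Das 72 h replicate 2 and 15 without Das 72 h replicate 3, against 8.29% of all genes below the sum in that fit. At 24 h only SEC24D departed from the sum in the main fit (-1.19 ± 0.13, edgeR adjusted p = 0.000607), against 0.0306% of all genes in either direction. With the replicate block 3 genes lay below the sum, against 0.642% of all genes. In the numbered libraries alone 7 genes lay above the sum, against 0.584% of all genes, and 7 below it, against 4.5%. Of the 9 lumenal chaperones and co-chaperones, 4 lay above the sum in that fit. The comparison reuses the control libraries in both single responses.

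**Figure D4:**
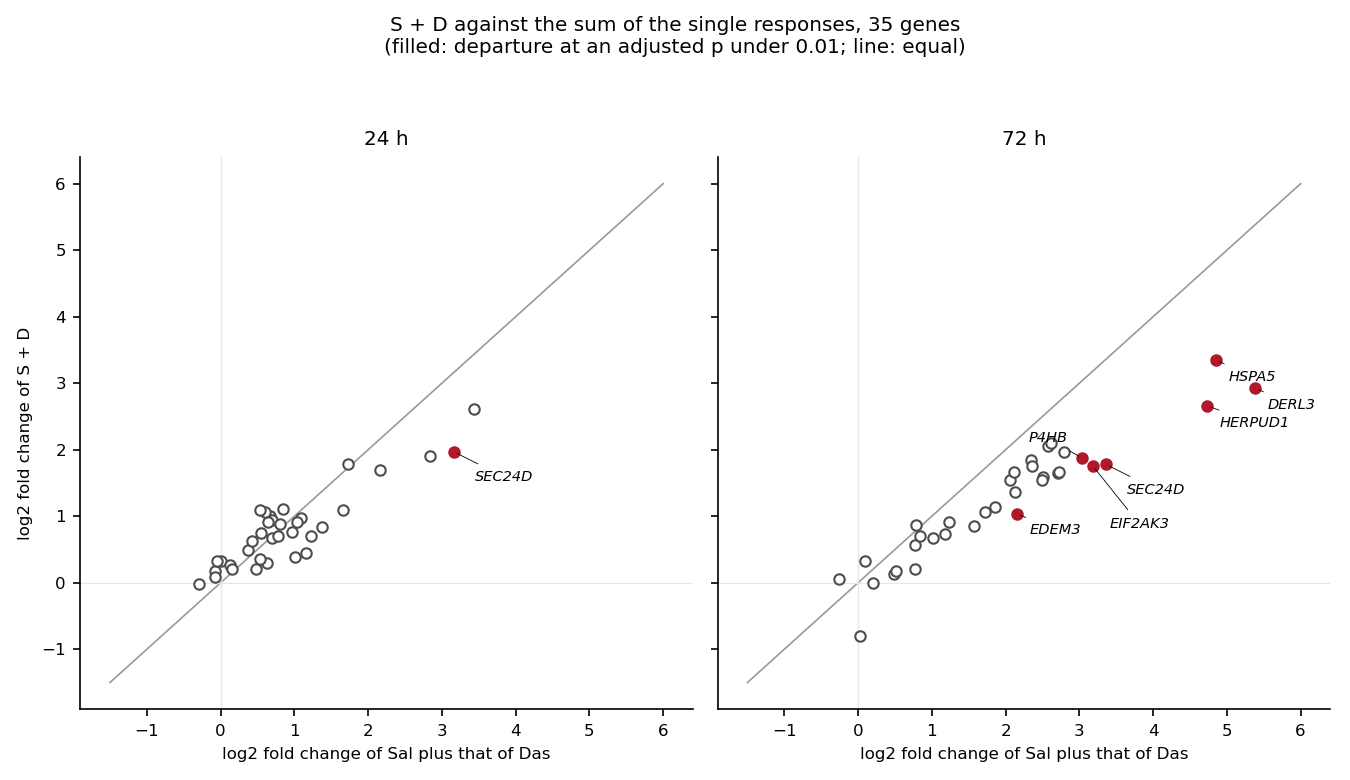
Log2 fold change with S + D (y axis) against the sum of the Sal and Das log2 fold changes (x axis) for the 35 genes at 24 and 72 h, with the line on which both are equal and filled points for genes called as departing from it. At 72 h the genes with the largest sums, such as DERL3, HERPUD1 and HSPA5, lie below the line.

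The responses at 72 h and 24 h were then tested against each other in a fit of all 32 libraries. With Sal 13 of the 35 genes had a larger log2 response at 72 h, against 8.21% of all genes, and XBP1 a lower one (-1.0 ± 0.21, edgeR adjusted p = 0.000611), against 13.7%. The gains were 2.16 ± 0.42 for HSPA5 (edgeR adjusted p = 0.00023), 1.91 ± 0.5 for DERL3 (0.00366), 1.37 ± 0.32 for P4HB (0.00144) and 1.22 ± 0.23 for ATF6 (0.000153). The DERL3 call held in 12 of 16 fits that each left out a library, with an edgeR adjusted p of 0.0117 without the unnumbered control library of 24 h. By contrast the differences for HERPUD1 (0.6 ± 0.33), EIF2AK3 (0.36 ± 0.2) and SEC24D (0.18 ± 0.22) were not called. With S + D 7 genes had a larger response at 72 h, against 6.15% of all genes, led by HSPA5 (1.62 ± 0.42) and P4HB (1.22 ± 0.32), and XBP1 had a lower one (-1.13 ± 0.21), against 10.1%. In the same kind of fit the HSPA5 call held in 12 of 16 (edgeR adjusted p up to 0.0113 without S + D 24 h replicate 3) and the P4HB call in 10 (0.0132 without S + D 24 h replicate 1). The S + D count of 8 fell to 5 without S + D 24 h replicate 1, 2 or 3 and to 4 without S + D 72 h replicate 1. With Das 0 of the 35 genes were called by edgeR, against 0.226% of all genes in either direction. When Das 72 h replicate 3 was left out, 6 genes had a larger response at 72 h, against 0.882% of all genes.

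The 11 genes with an ER stress response element did not move as one group. With Sal at 72 h HSPA5, HSP90B1, HYOU1, SDF2L1, CRELD2, CALR, CANX and HERPUD1 rose, XBP1 fell, and PDIA6 and ERO1B were not called. PDIA6 stood at 685 ± 41.8 CPM in the control and 761 ± 42.4 CPM with Sal (SD, n = 4). Genes with no match in the window, such as DNAJC3 (1.86), SEL1L (1.59) and EIF2AK3 (1.65), rose as well.

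Other genes of the same pathways were examined from lists. At 72 h Sal raised 5 of 12 genes of the PERK-ATF4-CHOP arm and lowered 1 (median log2 fold change 0.55), whereas the counts for Das were 3 and 1 (0.45) and those for S + D 7 and 1 (0.67). Of all genes, 26.3%, 10.5% and 27% were higher with Sal, Das and S + D, and 26.8%, 9.36% and 27.9% were lower. DDIT3, which encodes the pro-apoptotic factor CHOP, rose from 12.2 ± 3.48 to 166 ± 13.7 CPM with Sal (SD, n = 4; log2 fold change 3.75 ± 0.36, edgeR adjusted p = 1.55e-07), by 2.36 with Das (2.7 without Das 72 h replicate 3) and by 3.95 with S + D. ATF3, a stress-induced transcription factor, rose by 2.73, 1.42 (1.73 without that library) and 3.34. ATF4 itself, which is regulated mainly at translation, stood at 686 ± 8.65 CPM in the control and 704 ± 47.7 CPM with Sal (SD, n = 4), and rose with S + D to 949 ± 134 CPM (0.45 ± 0.1, edgeR adjusted p = 0.000999). With Das it stood at 878 ± 63.9 CPM (SD, n = 4), a difference of 0.35 ± 0.1 that was not called (edgeR adjusted p = 0.0154, and 0.00333 to 0.0467 over its 8 alternatives, 4 of which called it) and that was called without Das 72 h replicate 3 (0.42, 0.00407).

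At 72 h Sal raised 5 and lowered 4 of 11 other ER stress regulators, against 26.3% and 26.8% of all genes. The membrane-bound transcription factor CREB3L1 fell by 2.81 on the log2 scale with Sal and by 3.34 with S + D, and rose by 1.0 with Das (1.03 without Das 72 h replicate 3). Its relative CREB3 rose by 2.05 with Sal and by 1.25 with Das (1.51 without that library). Thus CREB3L1, as XBP1, was lower with Sal and higher with Das than in the control.

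Of 17 other COPII and cargo retrieval genes, 15 rose with Sal at 72 h (median 1.09), 12 rose with Das (0.7) and 15 rose with S + D (0.85), and 0 were lower with any of them. Of all genes at 72 h, 26.3%, 10.5% and 27% were higher with these treatments, and 26.8%, 9.36% and 27.9% were lower. At 24 h 14, 10 and 15 of the 17 were already higher, against 4.55%, 6.99% and 17.1% of all genes. KDELR3, a receptor that returns ER proteins from the Golgi, rose from 25.5 ± 1.3 to 208 ± 32.5 CPM with Sal at 72 h (SD, n = 4; log2 fold change 3.01), and SEC24A rose by 1.86. Of 22 other lumenal folding factors 13 were higher and 2 lower with Sal (0.89), among them DNAJC10, a reductase of the ER, at 2.07. PDIA2 had 0 counts in all 4 control libraries and 3.29 to 4.57 CPM with Sal, at least 48.8-fold higher against 3 counts per library. Of 16 other ERAD factors 9 were higher and 1 lower (0.6), led by ERLEC1 (1.64) and SELENOS (1.41), and of 23 translocon, signal peptidase and glycosylation genes 12 were higher and 2 lower (0.47), with SRPRA at 1.52 and TUSC3 at -1.67.

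Chaperones of other compartments were also counted. Of 14 cytosolic heat shock chaperones, Sal raised 1, against 26.3% of all genes, and lowered 6, against 26.8%, at 72 h (median -0.22), and Das raised 0 and lowered 6 (-0.36), against 10.5% and 9.36% of all genes. The small heat shock protein HSPB1 fell by 1.06 with Sal and by 1.63 with Das on the log2 scale (-1.59 without Das 72 h replicate 3), and the Hsp90 co-chaperone FKBP4 fell by 1.45 with Sal. Of 7 mitochondrial chaperones and proteases, HSPA9 (1.35) and LONP1 (1.1) were higher with Sal and 0 were lower, against 26.3% and 26.8% of all genes.

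**Figure D5:**
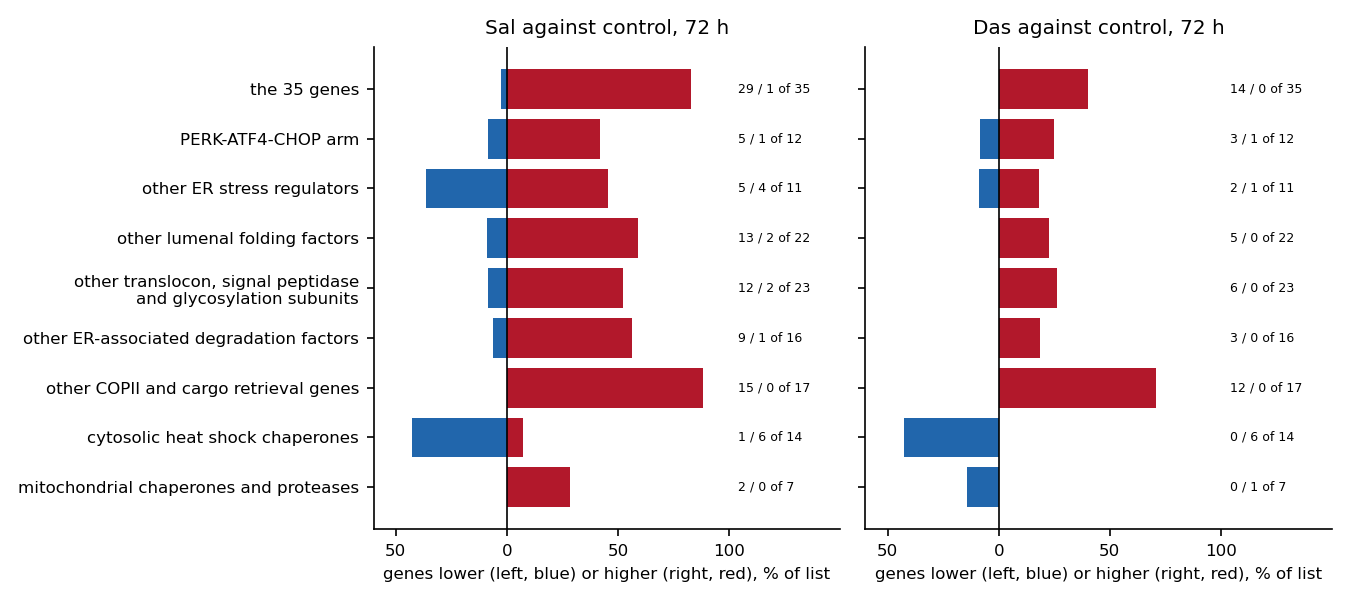
Percent of the genes of each list called higher (right, red) or lower (left, blue) with Sal and with Das at 72 h, at an edgeR adjusted p under 0.01, with the counts written as higher / lower of all genes in the list. With Sal, 29 of the 35 genes and 15 of the 17 other COPII and cargo retrieval genes were higher, against 26.3% of all genes. By contrast 6 of 14 cytosolic heat shock chaperones were lower, against 26.8% of all genes.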

How the data were processed

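Per the labels and the study's methods, TruSeq libraries of MDA-MB-468 RNA were sequenced, and the submitters' processing notes name bcl2fastq 2.19, STAR 2.5.2, the genome build GRCh37, Cufflinks 2.1.1 and DESeq2. The authors deposited 1 table of raw, unnormalized counts for each Ensembl gene. The counting program, its annotation and its use of strand are not given in the sources used here. All columns of the table were mapped to samples by their labels. The 35 genes, the lists of other genes and the genes named from them were chosen with earlier results of these data known, so no list was tested.

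These counts were scaled with TMM factors, filtered with filterByExpr (minimum count 10) and tested with the quasi-likelihood test of edgeR 4.0.16 (R 4.3.3), with p-values adjusted by Benjamini and Hochberg over all genes tested. Every adjusted p is from this test unless another is named. A model held the 16 libraries of each time point (16357 genes at 24 h, 16682 at 72 h), and another all 32 libraries (17227 genes) for comparisons of the times. A gene was called at an adjusted p under 0.01, the cutoff of the study, whose fold cutoff (absolute log2 fold change above 1.5) was an alternative. Levels are CPM with TMM factors from all libraries. Of the 35 genes, values of every library are given for HSPA5, XBP1, ATF6, ERN1 and EIF2AK3 and for the 4 called genes with the largest change in each comparison with the control. Of the other lists, ATF4, DDIT3 and up to 2 genes per list with the largest change are named. P-values rest on the spread between the 4 libraries within each condition, estimated together over all conditions of a fit and with information shared across genes. Library totals set the counting precision.

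Gene coordinates (GRCh37) and exon overlaps came from GENCODE 44 lifted to that build, and promoters from RefSeq (GRCh38.p14), matched by symbol. At 24 h the deviations of libraries with the same replicate number correlated at 0.13 or more in every pair (0.59 to 0.67 between unnumbered libraries, coded as number 4). Pairs with different numbers ran from -0.52 to 0.35 at 24 h, with a median of -0.06, so only the unnumbered libraries stood clear of them. A pairing of the other libraries by number was therefore an assumption of the fits with the replicate block. The main fits held no term for the pairing, and the fits with the replicate block did. At 72 h the lowest correlation between libraries with the same number was -0.03. On simulated data of the Sal comparison, edgeR recovered 53 of 100 genes changed by a log2 fold change of 1 and 83 of 100 changed by 2 at 24 h (16357 genes, 3 false calls), and 53 and 85 of 100 at 72 h (16682 genes, 3 false calls). The simulated libraries were drawn independently, without the shared deviations of the unnumbered libraries, so these counts do not cover such deviations. Alternatives were RLE size factors, no filter, the replicate block, a batch term for the unnumbered libraries, the numbered libraries only, DESeq2 1.42.0, fits of only the groups compared or of all libraries, both cutoffs of the study, and each library left out.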

Additional observations from a re-analysis of the deposited data

Results flagged for a closer look

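In 80 groups of 4 libraries (10 genes in 8 conditions), 1 library stood far from the other 3 in 17 groups by Dixon's gap test, where chance gives about 1 in 20, and in 16 of the 17 it was the unnumbered library. At 24 h the unnumbered library was high for HSPA5 in all 4 conditions, at 379 CPM in the control, 1536 CPM with Sal, 635 CPM with Das and, with S + D, 1633 CPM. It was high for P4HB with Sal (2542 CPM) and S + D (1640 CPM), for CRELD2 in the control (44.1 CPM), with Sal (86.6 CPM) and with S + D (85.1 CPM), for DERL3 with Sal (18.2 CPM), for ERN1 with S + D (49.0 CPM) and for HERPUD1 with Das (334 CPM). It was low for SEC24D with Das (55.4 CPM). At 72 h with Sal it was low for ERN1 (38.9 CPM), HERPUD1 (870 CPM) and SEC24D (152 CPM). The library outside this pattern was S + D replicate 1 at 72 h, with HSPA5 at 4587 CPM. What the unnumbered libraries share beside the missing number was not tested.

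The response differed between the time points by an interaction test for 14 genes with Sal and 8 genes with S + D. For HSPA5 the log2 response was larger at 72 h by 2.16 with Sal and 1.62 with S + D, and for P4HB by 1.37 and 1.22. With Sal it was also larger for DERL3 (1.91) and ATF6 (1.22). For XBP1 it was lower at 72 h, by -1.0 with Sal and -1.13 with S + D.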

How the results depend on the processing

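Counts of the 35 genes called moved most at 24 h. Higher with Sal at 24 h were 12 genes in the report, 21 with the replicate block, 24 with a batch term, 24 in the numbered libraries, 7 in a fit of only the groups compared and 3 past both cutoffs of the study (9 to 13 with each library left out). Higher with Das at 24 h were 7, and 13 with a batch term, 17 in the numbered libraries and 0 past both cutoffs (6 to 11), and lower were 0, and 1, 1 and 2 with the block, the batch term and the numbered libraries. Higher with S + D at 24 h were 24, and 5 past both cutoffs (16 to 20). For S + D against Sal at 24 h, 5 became 8 with the block, 9 with a batch term, 15 numbered, 3 in the groups compared, 2 with all 32 libraries and 0 past both (3 to 11). For Sal against Das at 24 h, 7 became 16 with the block, 20 with a batch term, 18 numbered, 0 in the groups compared and 0 past both (6 to 9). Departures from the sum at 24 h went from 1 to 3 with the block, 4 with a batch term, 14 numbered (7 above and 7 below the sum), 3 with DESeq2, 0 with all libraries and 0 past both (1 in each left-out fit).

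At 72 h the counts past both cutoffs were 18 higher and 0 lower with Sal (26 to 29 and 1 with each library left out), 2 higher with Das (9 to 25), 17 higher and 0 lower with S + D (28 to 29 and 1), 4 for Sal against Das (17 to 21) and 3 departures (4 to 15). In fits of only the groups compared, 7 genes were higher with Das and 12 differed between Sal and Das. S + D against Sal went from 0 to 1 without the filter, with the replicate block, a batch term, DESeq2 or only the groups compared (0 in each left-out fit). Departures went from 7 to 11 without the filter, 14 with the block, 15 with a batch term, 13 with DESeq2 and 13 with all 32 libraries. Replicate numbers did not pair every library at 72 h. For the time differences, Sal gave 23 in the numbered libraries and 2 past both cutoffs (11 to 20), S + D 13 with a batch term, 16 in the groups compared and 1 past both (4 to 9), and Das 0 to 6. No call of a single named gene against the control reversed its direction under these alternatives, and estimates that were not called could change sign. A fit of only the groups compared does not exist for departures, which use all 4, and no gene needed a test at low counts. The causes of these shifts were not tested, although both cutoffs are stricter by construction. Fits with fewer libraries called more genes in some comparisons, such as Sal at 24 h in the numbered libraries, and fewer in others.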
